A study of Mus musculus with 12 samples.

Results

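The Sult2a genes are a family of near-identical mouse genes for cytosolic hydroxysteroid sulfotransferases, which lie side by side on chromosome 7. Their levels were followed on liver arrays of 12 female C57BL/6N mice, with every probe whose accession is paired with the symbol Sult2a1, Sult2a2, Sult2a3, Sult2a4, Sult2a5 or Sult2a6. Of these 6 genes 5 had a probe, and Sult2a5 had none. The 5 genes were read by 7 probes of the 39429 on the array, against 20886 genes with a name in all. Sult2a1, Sult2a2, Sult2a3 and Sult2a4 had 1 probe each and Sult2a6 had 3. The genes were chosen with their levels in these diets known, so that their levels and folds are given as a description, with no test.

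All 12 mice ate a normal formula diet (NFD) for 6 months, begun as young adults, and the 4 groups of 3 mice differed in the carbohydrate and in resveratrol, a plant stilbene. Ctrl mice had corn starch and sucrose as the carbohydrate. RS mice had the Ctrl diet with resveratrol added. DJ mice had Dongjin rice in place of the starch and sucrose. DJ526 mice had the rice line DJ526 instead, which is Dongjin rice with a stilbene synthase gene from peanut and makes resveratrol in its grain. DJ526 and DJ therefore differ in the transgene as well as in resveratrol. Cages were assigned to diets, and the labels do not say which mice shared a cage. One sample list of the study gives the RS and DJ arrays the other way round from the labels. The labels, which give the arrays the same diets as the names of the scanner outputs do, were followed here.

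Sulfotransferases of the SULT2A kind move a sulfonate group from the donor PAPS (3'-phosphoadenosine 5'-phosphosulfate) to a hydroxyl group of dehydroepiandrosterone, other hydroxysteroids and bile acids. The sulfated products are more soluble in water and are exported into bile or blood. In mouse liver these genes are known to be female-predominant, and the nuclear receptors CAR, PXR and FXR are known to act on SULT2A promoters through a pair of inverted half-sites with no spacer between them.

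The sequences before the starts of the genes are shown because the measured members moved together across the mice. Whether these sequences bear on that was not tested, and Sult2a5, with no probe, was not measured. RefSeq promoter windows (build GRCm38.p6) were matched for 4 of the 6 genes, namely Sult2a3, Sult2a4, Sult2a5 and Sult2a6. No window was matched for Sult2a1 and Sult2a2. The 250 bases before each annotated start are printed 5′ to 3′ on the strand of the gene, at chr7:14123049-14123298 (minus strand) for Sult2a3, chr7:13989589-13989838 (minus strand) for Sult2a4, chr7:13623717-13623966 (plus strand) for Sult2a5 and chr7:14254871-14255120 (minus strand) for Sult2a6. The first run of capitals in each is the 12 bases closest to GGGTCATGAACT, which joins the half-sites GGGTCA and AGTTCA as an inverted repeat with no spacer. The second is GTTAAT, a half-site of the liver factor HNF1. Both motifs were chosen after the windows were read.
Sult2a3: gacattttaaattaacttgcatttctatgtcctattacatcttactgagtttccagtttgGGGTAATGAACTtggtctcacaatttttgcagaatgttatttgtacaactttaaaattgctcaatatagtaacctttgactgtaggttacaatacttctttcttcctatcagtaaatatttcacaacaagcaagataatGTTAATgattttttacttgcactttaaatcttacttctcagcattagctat
Sult2a4: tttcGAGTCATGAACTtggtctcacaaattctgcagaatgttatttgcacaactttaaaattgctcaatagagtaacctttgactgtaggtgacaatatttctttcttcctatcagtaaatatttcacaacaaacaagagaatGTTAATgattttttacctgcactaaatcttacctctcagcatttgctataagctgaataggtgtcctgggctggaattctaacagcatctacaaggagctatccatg
Sult2a5: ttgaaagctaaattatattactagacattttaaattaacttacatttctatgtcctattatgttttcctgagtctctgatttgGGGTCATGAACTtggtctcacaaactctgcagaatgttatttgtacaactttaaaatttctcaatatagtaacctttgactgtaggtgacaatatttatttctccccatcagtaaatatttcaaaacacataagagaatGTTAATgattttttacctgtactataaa
Sult2a6: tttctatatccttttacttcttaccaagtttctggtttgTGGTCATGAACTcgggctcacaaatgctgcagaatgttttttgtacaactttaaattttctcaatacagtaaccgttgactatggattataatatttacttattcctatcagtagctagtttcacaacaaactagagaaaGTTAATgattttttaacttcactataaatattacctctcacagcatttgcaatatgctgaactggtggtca

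The 4 sequences aligned to each other over 171 to 229 bases with 81.6% to 92.7% identical bases, and Sult2a3 and Sult2a4 were the closest pair. With up to 1 mismatch and on both strands, GGGTCATGAACT was in 4 of the 4 windows and in 0.149% of all 32851 RefSeq windows of the same length, which is 49 windows. Sult2a5 held the 12 letters exactly, and the other 3 genes matched at 11 of 12. GTTAAT was in 4 of the 4 windows and in 6.43% of all windows, on either strand, and Sult2a3 and Sult2a5 held it 2 times. The repeat began 139 bases before the GTTAAT in capitals in Sult2a3, Sult2a4 and Sult2a5, and 140 bases before it in Sult2a6. The ideal repeat AGGTCATGACCT was in none of the 4 windows and in 0 of all 32851. A match is a description of letters and does not show that a factor binds there.

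Levels are given as log2 of the processed signal relative to the upper quartile (75th percentile) of its array, so that 0 is the level of that quartile. The 75th percentile of the processed signal was 953 to 1167 and 73.0% to 80.8% of the spots on each array had the well-above-background flag. Hepatocyte markers were high in every group (6 of 6 well above background on every array, summed signal 1451 to 1794 times the 75th percentile). The sum was 1629 to 1794 in DJ, above Ctrl (1548 to 1565) and DJ526 (1451 to 1559) without overlap, and its part in the member levels was not tested. No spot was saturated. Of the member probes, 6 were well above background on all 12 arrays. The exception was the dimmest Sult2a6 probe (A_55_P2107225), which was not well above background in Ctrl replicate 2 and DJ replicate 3. Levels of one probe are not set against those of another, since probes differ in how brightly they read. The probe sequences were not used here, and between such similar genes the signal of a probe may come in part from another member.

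Sult2a1, which sulfates bile acids and hydroxysteroids, was 3.26, 2.01 and 1.89 in the 3 Ctrl mice. It was 6.37, 5.38 and 5.20 in RS, 6.73, 6.41 and 1.20 in DJ, and 4.08, 6.15 and 3.70 in DJ526 (replicates 1 to 3). All RS and all DJ526 mice were above all Ctrl mice, whereas the DJ mice held both the highest and the lowest level of the 12. The group means were 2.39 ± 0.754 in Ctrl, 5.65 ± 0.629 in RS, 4.64 ± 1.32 in DJ526 and 4.78 ± 3.10 in DJ (SD, n = 3). On the log2 scale this is a fold against Ctrl of 3.26 in RS, 2.25 in DJ526 and 2.39 in DJ (standard error 1.22 each, from the fit over all probes).

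Sult2a2, a hydroxysteroid sulfotransferase next to Sult2a1 on the chromosome, was 4.70, 3.52 and 3.18 in Ctrl. It was 6.49, 5.80 and 5.59 in RS, 6.56, 6.39 and 2.72 in DJ, and 5.01, 6.16 and 4.37 in DJ526. RS stood apart from Ctrl, but DJ526 did not, since DJ526 replicate 3 lay below Ctrl replicate 1. The mean difference from Ctrl was 2.16 in RS, 1.38 in DJ526 and 1.43 in DJ (log2, standard error 0.882), which was the smallest among the 5 genes in each of the 3 diets.

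Sult2a3 was 0.71, -0.48 and -0.93 in Ctrl. It was 3.90, 2.30 and 2.16 in RS, 3.30, 3.61 and -1.10 in DJ, and 1.32, 2.84 and 0.81 in DJ526. This was the one gene with its highest level in RS replicate 1 in place of DJ replicate 1 (brightest probes). RS and DJ526 were both above Ctrl in all mice. Its difference from Ctrl was 3.02 in RS, 1.89 in DJ526 and 2.17 in DJ (log2, standard error 1.09).

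Sult2a4 had the widest range over the mice. It was 1.08, -0.22 and -0.20 in Ctrl, 4.999, 3.81 and 3.78 in RS, 5.29, 5.03 and -0.85 in DJ, and 2.45, 4.91 and 2.14 in DJ526. From DJ replicate 3 to DJ replicate 1 the signal differed 70.2-fold, within one diet, and this SD over the 12 mice ranked 8 among the 39429 probes. The difference from Ctrl was 3.98 in RS, a 15.7-fold higher signal, 2.94 in DJ526 and 2.94 in DJ (log2, standard error 1.37).

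Sult2a6 was read by 3 probes. The brightest (A_55_P2172532) was 4.52, 3.29 and 2.99 in Ctrl, 6.43, 5.92 and 5.68 in RS, 6.74, 6.54 and 2.71 in DJ, and 4.95, 6.27 and 4.44 in DJ526. The second (A_55_P2107223) was 3.37, 2.17 and 2.01 in Ctrl, 5.82, 4.96 and 4.80 in RS, 5.81, 5.64 and 1.55 in DJ, and 3.91, 5.35 and 3.41 in DJ526. All RS mice were above all Ctrl mice on both. DJ526 stood above Ctrl on the second and not on the brightest, where DJ526 replicate 3 was below Ctrl replicate 1. The dim probe was -5.94, -7.16 and -7.27 in Ctrl, -3.12, -3.69 and -3.58 in RS, -3.40, -3.12 and -7.79 in DJ, and -4.68, -3.004 and -5.05 in DJ526. The difference of RS from Ctrl was 2.41, 2.67 and 3.33 on the 3 probes (log2, in this order, standard errors 0.913, 0.965 and 1.04). The last of these rests on 2 of 3 Ctrl mice well above background. The direction was the same on the 3.

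**Figure D1:**
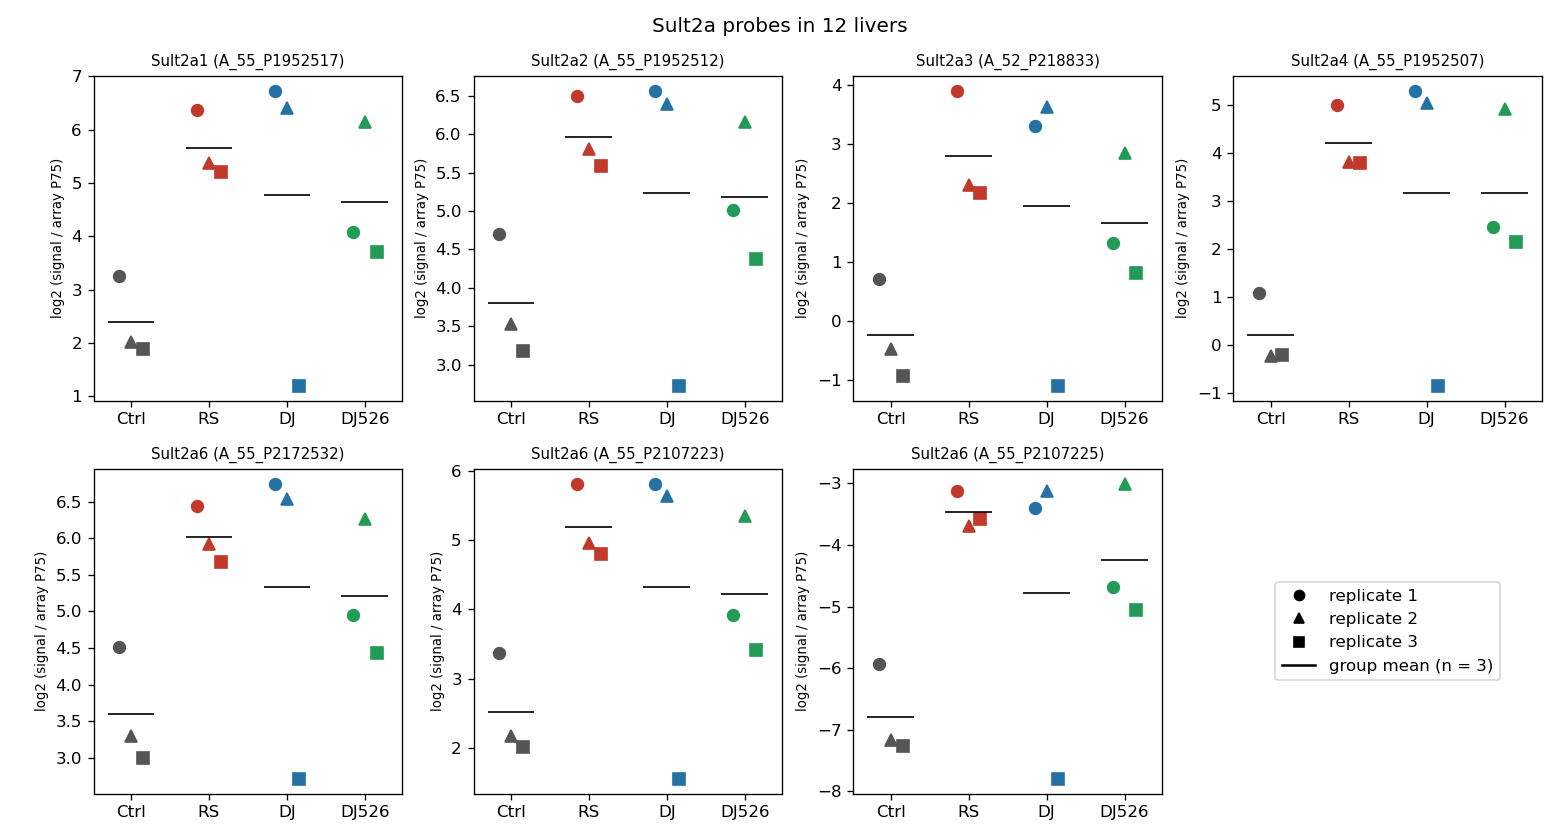
Level of each of the 7 Sult2a probes (y axis, log2 of the signal over the 75th percentile of the array) in the 4 diets (x axis). Points are mice, shapes are replicate numbers and lines are means of 3 mice. On each probe the RS mice lay above the Ctrl mice, and DJ replicate 3 lay below every other mouse.

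The order of the group means of log2 levels was the same for Sult2a1, Sult2a2, Sult2a3 and Sult2a6 (brightest probe), with RS highest, then DJ, DJ526 and Ctrl. For Sult2a4 the means of DJ and DJ526 were 3.16 and 3.17. On averages of the linear signal the order of RS and DJ turned in 3 of the 5 genes. The log2 of that average was 6.01 in DJ and 5.75 in RS for Sult2a1, 4.59 and 4.32 for Sult2a4, and 6.11 and 6.05 for Sult2a6. No member probe separated DJ from RS, DJ526 from DJ or DJ526 from RS (0 of 7 in each, where 6.34%, 18.4% and 11.1% of all probes did so in either direction). RS stood above Ctrl on 7 of 7 probes, where 6.24% of all probes stood higher without overlap. DJ526 stood above Ctrl on 5 of 7, where the share of all probes was 12.5%. DJ did so on 0 of 7, with a share of 4.48%. These contrasts chose the genes, so that the counts describe the members only.

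Over the 5 genes, each read by its brightest probe, the median log2 difference from Ctrl was 3.02 in RS, 1.89 in DJ526 and 2.17 in DJ. Over all probes it was 0.03 in RS, 0.02 in DJ526 and -0.02 in DJ. The 3 comparisons share the same Ctrl mice. Between the other diets the median over the 5 genes was -0.11 for DJ526 minus DJ, -1.01 for DJ526 minus RS and -0.85 for DJ minus RS. The difference of DJ526 from DJ, less that of RS from Ctrl, had a median of -3.30. This difference of differences includes the transgene of DJ526 as well as resveratrol. In limma with Benjamini-Hochberg adjustment over all probes, 0 of the 7 member probes passed 0.05 in these 7 comparisons. The share of all probes that passed was 0% for RS against Ctrl, DJ against Ctrl, DJ against RS and the difference of differences. It was 0.00507% for DJ526 against Ctrl, 0.0101% for DJ526 against DJ and 0.00761% for DJ526 against RS. At an unadjusted p under 0.05, the limma count was 7 of 7 for RS against Ctrl (6% of all probes), 1 of 7 for DJ526 against Ctrl (10.8%) and 0 of 7 for DJ against Ctrl (5.22%). It was 0 of 7 also for DJ526 against DJ (9.81%), DJ526 against RS (5.5%), DJ against RS (3.52%) and the difference of differences (6.09%).

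**Figure D2:**
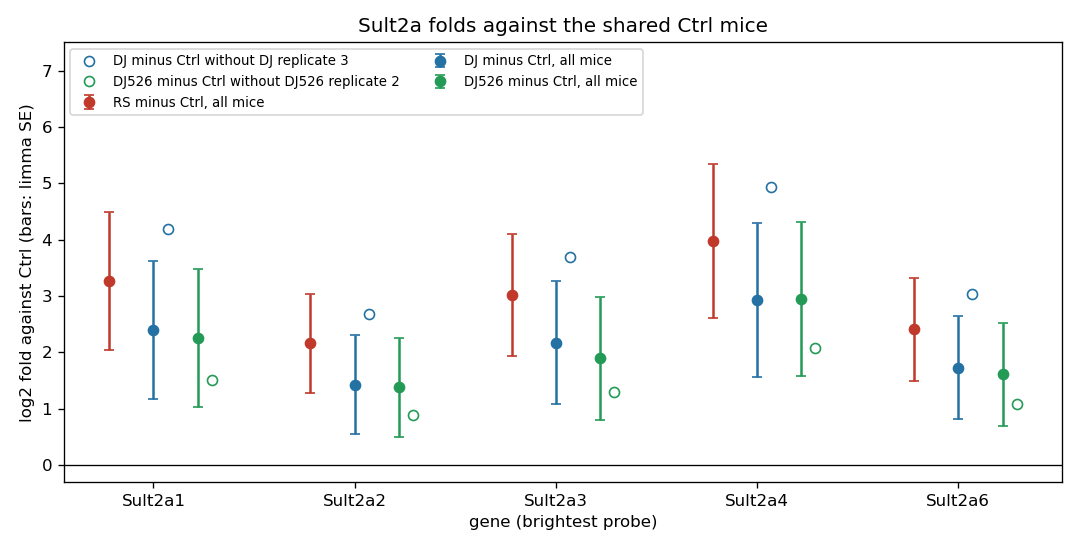
Log2 fold of RS, DJ and DJ526 against the shared Ctrl mice (y axis) for the brightest probe of each Sult2a gene (x axis). Filled points use 3 mice per diet, with the limma standard error as bars, and open points leave out DJ replicate 3 or DJ526 replicate 2. The RS fold was 2.16 to 3.98, and the DJ fold was above the RS fold in each gene once DJ replicate 3 was left out.

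The mean of DJ rested on which mice were in it. Without DJ replicate 3 the median log2 difference of DJ from Ctrl was 3.69, and 7 of 7 probes stood above Ctrl without overlap, as did 9.66% of all probes between these 2 DJ and 3 Ctrl mice. Without DJ replicate 2 it was 1.34. DJ526 minus DJ was -1.80 without DJ replicate 3, where 6 of 7 probes stood apart (25% of all probes), and 0.62 without DJ replicate 1, so that its sign depended on 1 mouse. DJ minus RS was likewise 0.67 without DJ replicate 3, with 3 of 7 probes apart (14% of all probes). In DJ526 the high mouse was replicate 2. Without it the difference from Ctrl was 1.30, and DJ526 stood below RS on 7 of 7 probes, with a median of -1.72, where 17.9% of all probes stood apart in either direction. Without Ctrl replicate 1, the highest of its group, DJ526 stood above Ctrl on 7 of 7 probes (22.2% of all probes), and without DJ526 replicate 3 it did so too (16.4%). RS minus Ctrl was 2.47 to 3.49 whichever mouse was left out, with 7 of 7 probes apart each time, where 9.06% to 14% of all probes stood higher.

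The arrays were on 3 slides of 4 arrays. The Ctrl mice shared slide 1 with DJ replicate 1. The next slide carried the other DJ mice together with RS replicates 1 and 2, and on slide 3 the DJ526 mice were beside RS replicate 3. No slide held Ctrl with RS or with DJ526. Within slide 1, DJ replicate 1 was above the Ctrl mean by a median of 3.54 log2 units over the 5 genes. Within slide 2, DJ minus RS was -1.84, with DJ replicate 3 low and DJ replicate 2 high, and within slide 3 DJ526 minus RS replicate 3 was -0.50. With the slide as a block in the fit, the median difference from Ctrl was 5.38 in RS, 4.88 in DJ526 and 3.54 in DJ, and DJ526 minus DJ turned to 1.34. The DJ value is that of DJ replicate 1 on slide 1. The RS value adds to it the step from DJ replicates 2 and 3 to RS on slide 2, and the DJ526 value a further step through RS replicate 3. Standard errors over the 5 genes were 1.61 to 2.49 in RS, 2.02 to 3.12 in DJ526 and 1.22 to 1.88 in DJ. These chained values are therefore not direct comparisons with Ctrl. DJ replicates 2 and 3, both on slide 2, differed by 3.67 to 5.87 log2 units on the brightest probes.

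The members moved together mouse by mouse. Over the 12 mice Pearson's r between the brightest probes of the 5 genes was 0.983 to 0.998 (10 pairs, Spearman's rho 0.965 to 0.993). Over all 21 pairs of the 7 probes r was 0.969 to 0.998. Among the 3 Sult2a6 probes it was 0.980 to 0.998, which overlaps the range between different genes. Without the pair of mice farthest from the median of the first probe of each pair, r over the 21 pairs was 0.944 to 0.997. For deviations from the group means, which leave out the diet, r was 0.974 to 0.999. The points share the mouse, the RNA and the array, and the probes read near-identical genes, so that agreement does not tell the genes apart.

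**Figure D3:**
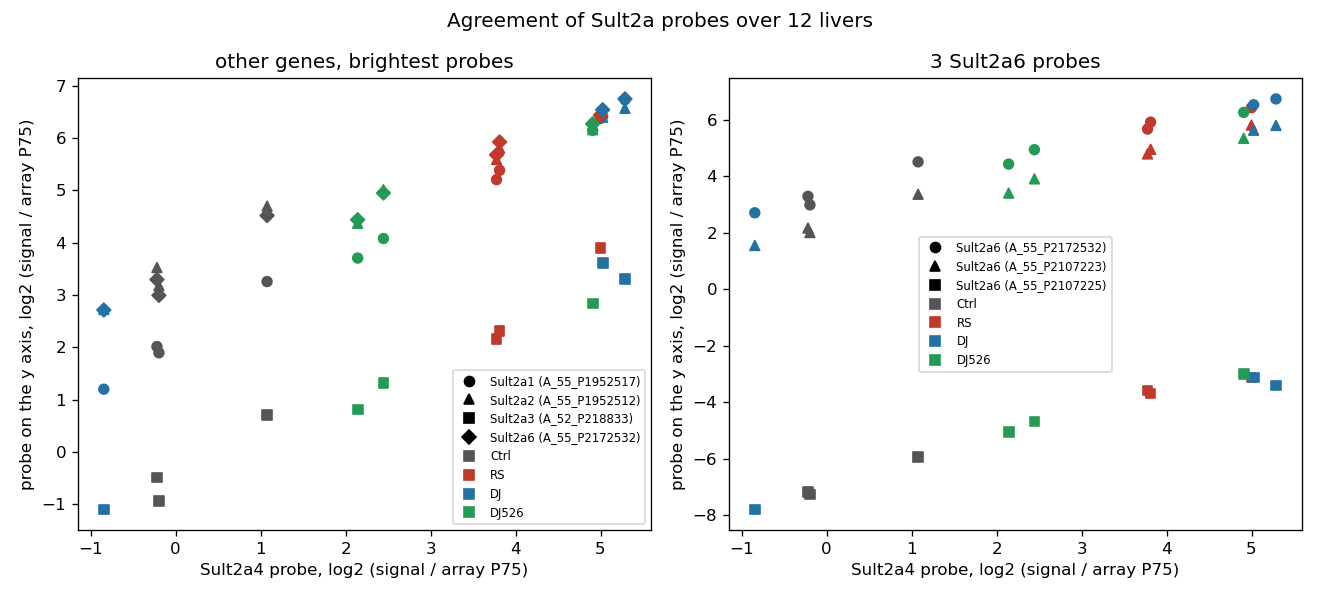
Levels of the Sult2a probes (y axis) against Sult2a4 (x axis), both as log2 of the signal over the 75th percentile of the array, with 12 mice per probe, coloured by diet. The left panel has the brightest probes of the other genes and the right panel the 3 Sult2a6 probes. The mice keep nearly one order on the probes, with DJ replicate 3 at the lower end and DJ replicates 1 and 2 and RS replicate 1 at the upper end. On the dim Sult2a6 probe (A_55_P2107225) the highest mouse was instead DJ526 replicate 2 (-3.004), with DJ replicate 1 at -3.40.

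Ranked from the highest, the mice had the same places on most genes. DJ replicate 3 was lowest for all 5 genes (brightest probes). DJ526 replicate 2 was at rank 4, RS replicate 2 at rank 5, RS replicate 3 at rank 6 and DJ526 replicate 1 at rank 7 for each of the 5. DJ replicates 1 and 2 and RS replicate 1 shared the ranks 1 to 3. The spread of the DJ mice was among the widest on the array. By SD within DJ, Sult2a4 ranked 5, Sult2a1 ranked 11, Sult2a3 ranked 42, the brightest Sult2a6 probe ranked 100 and Sult2a2 ranked 122 of all probes.

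Next to the members on chromosome 7 lie 2 further paralogs, Sult2a8 and Sult2a7. Sult2a8, a liver sulfotransferase that acts on bile acids, was 4.36, 3.94 and 3.82 in Ctrl, 4.37, 4.53 and 4.37 in RS, 4.40, 4.31 and 4.50 in DJ, and 4.43, 3.74 and 3.96 in DJ526. Its range over the mice was 0.787 log2 units, where the members spanned 3.84 to 6.13, and DJ replicate 3 was not low. As for the members, all its RS mice were above all Ctrl mice (6.24% of all probes), with a mean difference of 0.38. Sult2a7 was 1.22, 0.07 and -0.70 in Ctrl, -0.10, 0.08 and -0.50 in RS, -0.43, -0.25 and 1.21 in DJ, and -0.67, -1.46 and -1.61 in DJ526. In DJ its highest mouse was replicate 3, the mouse with the lowest member levels. Pearson's r with the mean centred level of the 5 members was 0.23 for Sult2a8 and -0.35 for Sult2a7 over the 12 mice. Neither passed the adjusted threshold in any comparison. Of the 3 further Sult2 genes, 1 had an unadjusted limma p under 0.05 in RS against Ctrl, namely Sult2a8, which was higher (6% of all probes passed in either direction). In DJ526 against Ctrl (10.8% of all probes) and against DJ (9.81%) it was Sult2a7, which was lower. In DJ526 against RS (5.5%) and in the difference of differences (6.09%) it was Sult2a8, which was lower.

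**Figure D4:**
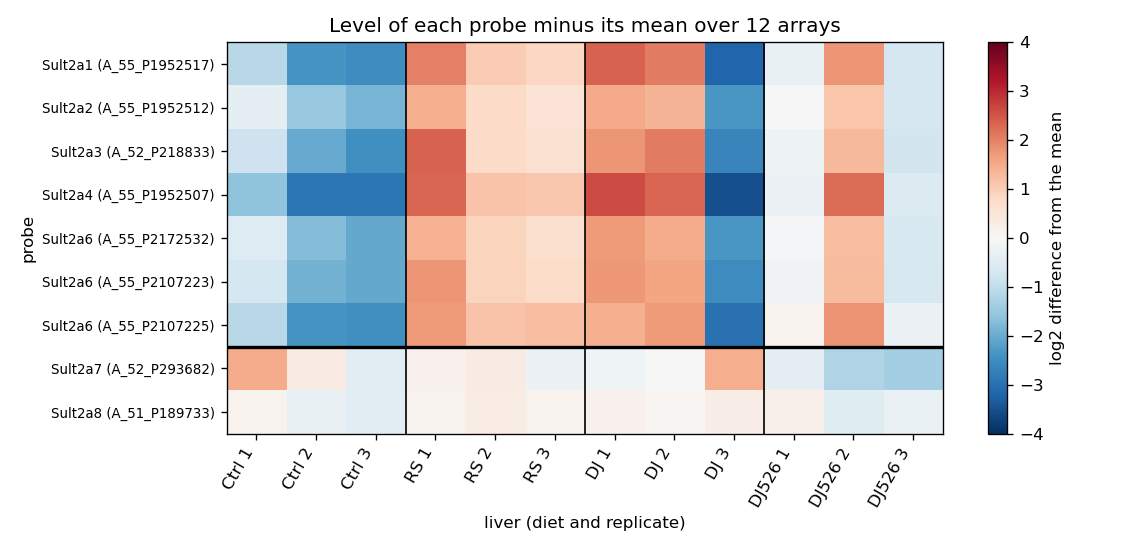
Level of each probe minus its mean over the 12 arrays (colour, log2 units) for the 7 Sult2a probes above the black line and Sult2a7 and Sult2a8 below it. Columns are mice, grouped by diet. The columns of Ctrl and of DJ replicate 3 are low and those of RS high on the 7 probes, whereas Sult2a8 spans 0.787 units in all.

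The other genes of sulfation and related pathways were read from fixed lists, 1 probe a gene, with limma adjusted over all probes. In these lists 3 log2 differences given without their diets are those of RS, DJ and DJ526 from Ctrl, in this order. No gene of the lists passed the adjusted threshold. At an unadjusted p under 0.05 limma gave 0 to 5 genes per list and comparison, and the 5 were among 17 male-predominant genes in DJ526 against Ctrl (1 higher and 4 lower), where 10.8% of all probes passed. Of 11 other cytosolic sulfotransferases, 0 passed in any comparison, and the median log2 difference from Ctrl was 0.19 in RS, -0.20 in DJ526 and 0.05 in DJ. Among those well above background on every array, Sult3a1 was 1.92 ± 0.527 in Ctrl, 1.20 ± 1.35 in RS, 0.52 ± 0.715 in DJ526 and 1.32 ± 1.57 in DJ (SD, n = 3). The estrogen sulfotransferase Sult1e1 differed from Ctrl by 0.79 in RS, -0.10 in DJ526 and 0.90 in DJ, and Sult4a1 by -0.40, -0.18 and -0.62 (log2). Over the 12 mice Sult3a1 ran against the members, with r = -0.75.

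Of 11 gene symbols listed for the supply of the sulfate donor, in which Impad1 and Bpnt2 name the same gene, 9 had a probe and 0 passed. Papss2, which makes PAPS in liver, was 5.45 ± 0.224 in Ctrl, 6.03 ± 0.231 in RS, 5.75 ± 0.226 in DJ526 and 5.71 ± 0.106 in DJ. Its RS and DJ mice stood above Ctrl without overlap, as did 6.24% of all probes in RS and 4.48% in DJ. The sulfate carrier Slc13a4 differed from Ctrl by 0.59 in RS, -0.01 in DJ526 and 0.06 in DJ, and Bpnt1, which removes the spent donor, by -0.17, -0.22 and -0.10 (log2). Of 3 genes for the removal of sulfate, 2 had a probe and 0 passed. Sumf2 differed by 0.07, 0.13 and -0.37 and Sumf1, which activates sulfatases, by -0.03, 0.12 and 0.07. These 2 lists had median differences of -0.02 to 0.12 from Ctrl in RS and DJ, with -0.15 for sulfate removal in DJ526.

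Of 15 nuclear receptors and liver transcription factors, 0 passed in any comparison. Nr1i3, which encodes CAR, was 2.96 ± 0.425 in Ctrl, 3.45 ± 0.257 in RS, 3.17 ± 0.207 in DJ526 and 3.18 ± 0.232 in DJ. Nr1i2, which encodes PXR, was 1.91 ± 0.169 in Ctrl and 2.29 ± 0.0935 in RS, with no overlap (6.24% of all probes stood higher in this way). It differed from Ctrl by 0.10 in DJ526 and 0.26 in DJ (log2). Over the 12 mice the highest r with the members in this list was 0.63, for Nr1i3 (0.44 for deviations from the group means). For Nr1i2 it was 0.08, and -0.57 for deviations from the group means.

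Of 17 target genes of CAR and PXR, 16 had a probe and 0 passed. The median log2 difference from Ctrl was 0.03 in RS, 0.08 in DJ526 and 0.08 in DJ. The exporter Abcc4 was -1.51 ± 0.281 in Ctrl, -0.59 ± 0.392 in RS, -1.08 ± 0.257 in DJ526 and -1.19 ± 0.134 in DJ. Abcc4 stood higher in RS than in Ctrl without overlap, as did 6.24% of all probes. Its r with the members was 0.75, the highest in the list, whose median r was 0.18. Alas1, the first enzyme of heme synthesis, differed from Ctrl by -0.05, -0.31 and -0.60, and the cytochrome Cyp3a11 by -0.06, 0.07 and -0.81 (RS, DJ and DJ526).

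Genes known to differ between the sexes in liver were listed too, since the members are known to be female-predominant. Of 24 female-predominant genes, 21 had a probe and 0 passed, and the median difference was 0.16 in RS, 0.06 in DJ526 and 0.16 in DJ. A1bg differed from Ctrl by 1.35 in RS, 0.69 in DJ526 and 1.95 in DJ, with SDs of 1.42 in Ctrl and 1.84 in DJ526. The list also holds Sult3a1, and Cyp3a44 differed by -0.24, -0.22 and -1.25. Of 18 male-predominant genes, 17 had a probe and 0 passed, with medians of -0.05, -0.11 and -0.09. In this list Slco1a1 differed by -1.02, -0.06 and -1.75, Elovl3 by -0.72, -0.24 and -1.63 and Bcl6, a repressor, by 0.72, 0.68 and 1.14. Across the 12 mice the median r with the members was 0.11 for the female and -0.27 for the male list.

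Among 16 genes of bile acid and steroid metabolism, 0 passed. The sterol 12α-hydroxylase Cyp8b1 was 0.52 ± 0.443 in Ctrl, 0.12 ± 0.234 in RS, -1.96 ± 1.73 in DJ526 and 0.46 ± 0.619 in DJ. Cyp7a1, the rate-limiting enzyme of bile acid synthesis, differed from Ctrl by -0.27, -1.19 and -0.99, and the steroid 5α-reductase Srd5a1 by -0.49, -0.39 and -0.33 (RS, DJ and DJ526). Of 19 fasting and feeding genes 0 passed, and Elovl6 differed by -0.62, -1.05 and -1.003, Pklr by -0.59, -0.61 and -0.68 and Fasn by -0.54, -0.63 and -0.57. Of 10 acute-phase genes 0 passed, and Orm2 differed by -0.32, -0.18 and -0.22, Orm1 by -0.34, -0.21 and -0.15 and Saa1 by -0.23, -0.17 and -0.31.

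Markers of other cells were read beside the members, since in whole liver fewer cells of a type and less RNA per cell cannot be told apart. The summed signal of 6 Kupffer cell markers, in multiples of the 75th percentile, was 71.8 to 133 in Ctrl, 58.1 to 81.2 in RS, 55.4 to 85.9 in DJ and 56.4 to 84.7 in DJ526. That of 5 lymphocyte markers was 4.13 to 4.91 in Ctrl, 4.42 to 5.21 in RS, 4.44 to 7.30 in DJ and 5.15 to 6.36 in DJ526. Markers of adrenal cortex, a steroid tissue, summed to 0.471 to 1.05 in Ctrl and 0.563 to 0.905 in the other diets, with 3 of 6 well above background. On the lymphocyte sum DJ526 lay above Ctrl without overlap, and on the endothelial sum DJ526 (42.7 to 46.2) lay above RS (41.0 to 42.1). On the cholangiocyte (5 markers), endothelial (5), stellate cell (5) and exocrine pancreas (6) sums every diet overlapped Ctrl. The part of these cells in the member levels was not tested.

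The named genes closest to the members were sought among 1237 genes well above background on all 12 arrays with an SD of at least 0.5, each read by its brightest such probe. The measure was Pearson's r over the 12 mice with the mean centred log2 level of the 5 members. It had a median of 0.13 over these genes, and 0.52 and -0.43 at the upper and lower 5%. Kat6b, a histone acetyltransferase, was closest, with r = 0.94 (0.97 for deviations from the group means). It was -2.38, -2.70 and -2.79 in Ctrl, -1.57, -1.99 and -2.10 in RS, -1.35, -1.26 and -2.54 in DJ, and -2.22, -1.42 and -2.29 in DJ526. Kat6b was thus low in Ctrl and in DJ replicate 3, within a range of 1.53 log2 units.

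After Kat6b came Gm10639 (r = 0.82), Tg (0.79), Gsta2 (0.77), Tnfsf8 (0.77), Gm3776 (0.73), Oosp1 (0.73), Hes5 (0.70), 4930474H20Rik (0.67) and Sidt1 (0.67). Gsta2, a glutathione transferase, was 2.86, 2.24 and 1.69 in Ctrl, 4.02, 2.17 and 3.00 in RS, 3.29, 2.77 and 0.71 in DJ, and 2.96, 3.27 and 3.13 in DJ526. Its lowest mouse was DJ replicate 3, as for the members, but its DJ526 mice lay close together. Without the pair of mice farthest from the median of the members, r fell to 0.63 for Gm10639 and 0.53 for Gsta2, and was 0.95 for Kat6b. Tg, Tnfsf8, Oosp1, Hes5, 4930474H20Rik and Sidt1 had mean levels of -5.34 to -4.74, near the dim end of the probes used.

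At the other end were Serpina4-ps1 (r = -0.84), Sult3a1 (-0.75), Ltf (-0.73), Lepr (-0.72), Olfr1474 (-0.68), C8a (-0.68), Atp8b5 (-0.66), Dlgap1 (-0.66), Slc38a5 (-0.65) and Slc4a1 (-0.65). Serpina4-ps1, a transcribed pseudogene, was -2.02, -1.22 and -0.17 in Ctrl, -4.53, -3.001 and -2.99 in RS, -3.67, -4.16 and -2.49 in DJ, and -2.34, -3.17 and -1.31 in DJ526. All its RS and DJ mice were below all Ctrl mice. The leptin receptor Lepr was -0.01, 0.17 and 0.09 in Ctrl, -1.33, -0.44 and -1.34 in RS, -1.14, -1.03 and -0.47 in DJ, and -0.70, -0.46 and -0.86 in DJ526. Every mouse of the other 3 diets was below the Ctrl mice on this probe, DJ replicate 3 included, and the other 3 Lepr probes had r = -0.65, -0.54 and 0.30. The share of all probes that stood below Ctrl without overlap was not counted, for Lepr or for Serpina4-ps1. For Egfr a probe that is not its brightest (A_55_P1956862), chosen after its value was seen, had r = -0.90, where the brightest had -0.57.

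**Figure D5:**
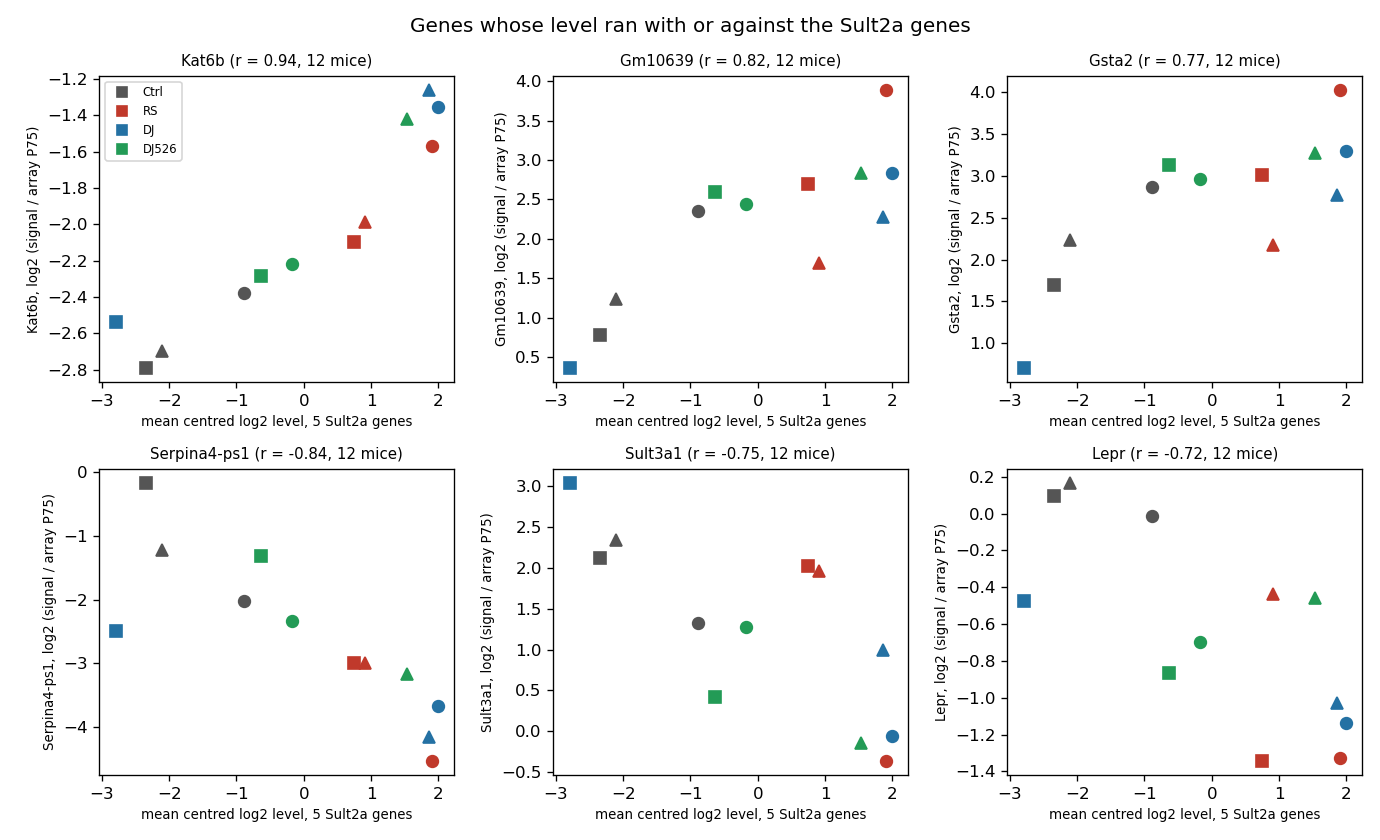
Level of 6 genes (y axes, log2 of the signal over the 75th percentile of the array) against the mean centred log2 level of the 5 Sult2a genes (x axis), with 12 mice coloured by diet and shaped by replicate number. Kat6b (r = 0.94) rises along the whole range, whereas Gsta2 (0.77) and Lepr (-0.72) spread more widely around it.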

How the data were processed

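Liver RNA of 12 mice was hybridised to 12 one-colour 44K arrays. The authors deposited, per the file headers, the signal intensity of each spot from Feature Extraction 11.5.1.1 on a linear scale, after background subtraction, with flags for background and outliers (deposited columns of other kinds). A table of globally normalized intensity values, also deposited by the authors, equals this signal times 1 factor per array, to a relative tolerance of 0.0001, for 99.8% to 99.9% of probes. Array depth was read as signal over background. Control spots and 93 to 197 outlier spots per array were left out, spots of a probe were averaged, and log2 of the 75th percentile was subtracted. RefSeq accessions named 27508 of 39429 probes. 68 probes lacked a value on some array. limma 3.58.1 (R 4.3.3) was fitted with 1 mean per diet, a variance trend and Benjamini-Hochberg adjustment over all probes (threshold 0.05). It was first run on simulated data, with an outcome that is not reported here. In those data the probes were drawn independently of each other, unlike the members, which moved together. Where mice shared a cage, p-values measure only the spread between these samples. The members, lists and tests were chosen with earlier results of these data known.

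A gene was read by its brightest probe. The named genes were all members, genes of each list past the threshold, up to 3 per list with the largest absolute mean log2 fold against Ctrl, and the 10 genes with the highest and the 10 with the lowest r. The rule was written for the mean of 6 members, of which 5 had a probe. One gene that the rule named is not reported here. Alternatives were quantile normalization, median centring, the deposited table, normexp with an offset of 50 on the median pixel (without flagged spots), a dim-probe filter, slide and replicate blocks, no trend, 2 groups per fit, the methods' t-test, other probe and scale choices, and each mouse left out. The study's text names another RNA extraction kit than the labels. The scripts used Python 3.11.15, numpy 2.4.6, pandas 2.3.3, Biopython and matplotlib 3.10.9.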

Additional observations from a re-analysis of the deposited data

Results flagged for a closer look

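One probe without a gene name here, A_55_P1989248, followed the members more closely than any named gene outside the family. It stands outside the comparisons above and was singled out after its values were seen. Its Pearson's r with the mean centred level of the 5 Sult2a genes was 0.998 over the 12 mice, and 0.998 for deviations from the group means. It was 1.44, 0.17 and -0.02 in Ctrl, 3.74, 2.94 and 2.81 in RS, 3.81, 3.63 and -0.44 in DJ, and 1.85, 3.58 and 1.66 in DJ526. RS was above Ctrl by 2.63 log2 units, with no overlap (6.24% of all probes stood higher in this way). What the probe reads was not tested. It was the 1 unnamed probe with r of 0.9 or more among those well above background on every array.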

How the results depend on the processing

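The median log2 difference of the 5 genes from Ctrl was 2.95 to 3.10 in RS, 2.15 to 2.23 in DJ and 1.82 to 2.08 in DJ526 under quantile normalization, median centring, the deposited table, normexp and the dim-probe filter. With the slide as a block it was 5.38 in RS and 4.88 in DJ526, where Ctrl shares no slide with either. As a ratio of average linear intensities DJ minus RS was 0.06 (log2) in place of -0.85, DJ526 minus DJ -0.86 in place of -0.11 and DJ minus Ctrl 2.97 in place of 2.17. With normexp 6 of 7 member probes stood apart for RS against Ctrl, in place of 7. With the deposited table the median of all probes in DJ526 against DJ was 0.10, in place of 0.04. Calls over all probes were 2, 4 and 3 for DJ526 against Ctrl, DJ and RS. For DJ526 against Ctrl and DJ they were 9 and 27 with quantile normalization and 4 and 10 with median centring. For the 3 in order they were 0, 1 and 1 with normexp, 4, 14 and 8 without dim probes, 0, 11 and 1 without the variance trend, 0, 0 and 0 with only 2 groups in the fit, and 0, 1 and 0 by the methods' t-test after adjustment. The slide block gave 1 for RS, 8 for DJ and 0 for DJ526 against Ctrl. It gave 40 for DJ526 against RS and 17 for the difference of differences. At an unadjusted 0.05 the methods' t-test gave 1976 for RS, 1823 for DJ and 5052 for DJ526 (against Ctrl), 4267 and 2417 for DJ526 against DJ and RS, and 1095 for DJ against RS. The replicate numbers do not pair the mice (correlations of deviations -0.273 to 0.258). With the replicate block the calls were 0, 0 and 0 for the 3 DJ526 comparisons and the member medians did not move (3.02 in RS).

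With each mouse left out, calls were 0 to 4 for RS against Ctrl, 0 to 1 for DJ against Ctrl, 0 to 173 for DJ526 against Ctrl, 0 to 107 for DJ526 against DJ, 0 to 28 for DJ526 against RS (the highest of these 3 without RS replicate 3), 0 to 0 for DJ against RS and 0 to 19 for the difference between the effects. The member medians were 2.47 to 3.49, 1.34 to 3.69 and 1.30 to 2.36 against Ctrl (RS, DJ, DJ526). For DJ526 they were -1.80 to 0.62 against DJ and -1.72 to -0.52 against RS. They were -1.68 to 0.67 for DJ against RS and -4.82 to -2.43 for the difference of differences. Member probes apart were 7 to 7, 0 to 7 and 5 to 7 against Ctrl (RS, DJ, DJ526), 0 to 6 for DJ526 against DJ, 0 to 7 for DJ526 against RS and 0 to 3 for DJ against RS. The cause of these shifts was not tested.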
